A study of Homo sapiens with 15 samples.

Results

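The genes whose symbols begin with KCN code for the subunits of potassium channels. All transcript clusters of the array annotated to a single gene symbol of that kind were taken. They comprised 89 genes on 89 transcript clusters, out of 17687 genes with a single symbol and 21448 transcript clusters in all. Of these, 88 code for a channel subunit, and KCNJ5-AS1 is an antisense RNA. Membership rested on the gene symbol. MG-63 cells, a human osteosarcoma line used as a model of osteoblasts, were grown in serum-containing medium on titanium-coated silicon chips. Ti-Ref was the uncoated titanium surface. Ti-TMS-PEI was the same titanium covered with trimethoxysilylpropyl-modified poly(ethyleneimine), a polymer rich in positively charged amino groups. RNA was hybridised to microarrays after 4 h (4 arrays for each surface) and after 24 h (4 Ti-TMS-PEI and 3 Ti-Ref arrays, 1 further Ti-Ref hybridisation having been set aside by the study because of its labelling controls). The chips were moved to fresh wells, so that cells which had not adhered were left behind. Both surfaces thus carried the same tumour line in the same medium, and the model has no normal osteoblasts. Arrays are named by surface, time and the replicate letter A to D. The study names independent experiments but also technical replicate groups, so the p-values measure the spread between these arrays.

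Potassium channels let potassium leave or enter the cell along its electrochemical gradient and hold the membrane potential negative. Inward rectifiers (Kir) and 2-pore-domain channels (K2P) are open near rest and set the resting potential. Voltage-gated channels (Kv) open on depolarisation, and calcium-activated channels couple the potential to intracellular calcium. Electrically silent modifiers and auxiliary subunits form no working pore alone and alter the gating or traffic of the pores they join. In bone-forming cells these channels are known to act on membrane potential, calcium entry, cell volume and proliferation.

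The values are normalised log2 signals, on which a difference of 1 equals a 2-fold change. The study describes a quantile normalisation but does not state whether the arrays of both times entered it together. The signal distributions differed between the times, so the times were not on a common scale. Levels are therefore compared between surfaces within a time and never across times. The comparison of the effects at 24 h and 4 h subtracts log2 fold changes across these scales, with a spread shared by all arrays. Its values therefore also depend on the scale at each time. Signals of different probes are not on a common scale either, and each gene was set only against a background limit. That limit was the 95th percentile of 348 olfactory receptor genes, which are expected to be silent in this line. It lay at 4.434 at 4 h and at 5.174 at 24 h. Array medians over all transcript clusters ran from 5.79 to 5.86 at 4 h and from 6.71 to 6.79 at 24 h. Of 10 mesenchymal and osteoblast markers 9 lay above the limit at both times, and of 5 epithelial markers none did. Of the markers of other cell types, 2 of 6 for muscle, 1 of 6 for neurons, 1 of 5 for blood (CD14) and 1 of 5 for endothelium (CDH5) lay above it as well.

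Of the 89 KCN genes, 34 (38.2%) lay above the limit at 4 h and 33 (37.1%) at 24 h, against 63.3% and 64.1% of all transcript clusters. At both times 30 did so, and these are called expressed here. The mean of both surfaces was set against the limit. KCNK4 (means 4.295 on Ti-Ref and 4.768 on Ti-TMS-PEI) and KCNA5 (4.372 and 4.527) passed it at 4 h only through the coated arrays. So did KCNJ15 at 24 h (5.143 and 5.312), while KCNA5 at 24 h passed only through the Ti-Ref arrays (5.423 and 5.158). The genes nearest the limit were KCNQ3 (4.421) just below it and KCNA5 (4.45) just above it at 4 h, and KCNK7 (5.167) just below it and KCNH2 (5.226) just above it at 24 h. KCNA1, KCNH1, KCNH4 and KCNIP1 passed it only at 4 h, and KCNA6, KCNE4 and KCNJ11 only at 24 h. The count fell to 13 with the 99th percentile of the olfactory receptors as the limit and to 9 with the median of all transcript clusters, so many of the 30 were dim.

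**Figure D1:**
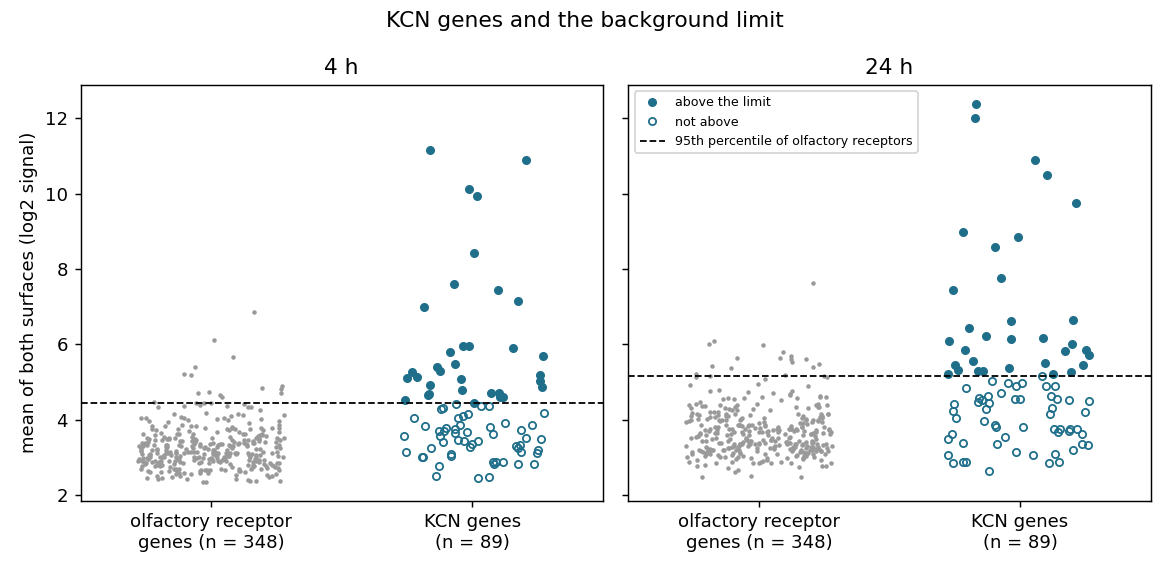
Mean log2 signal of both surfaces for 348 olfactory receptor genes (grey) and the 89 KCN genes (blue) at 4 h and 24 h, with each point a gene and the dashed line the background limit. Of the KCN genes 34 lie above the line at 4 h and 33 at 24 h, most of them close to it.

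By role, the expressed genes included 4 of 15 inward rectifiers (KCNJ2, KCNJ8, KCNJ12 and KCNJ15), 6 of 15 2-pore-domain channels (KCNK1, KCNK2, KCNK4, KCNK5, KCNK6 and KCNK17) and 7 of 25 voltage-gated pores (KCNA5, KCNA10, KCNC4, KCNH2, KCNH3, KCNQ1 and KCNQ5). They also included 4 of 10 silent modifiers (KCNF1, KCNG1, KCNG2 and KCNS3), 3 of 7 calcium- or sodium-activated pores (KCNMA1, KCNN1 and KCNN4) and 6 of 16 auxiliary subunits (KCNAB2, KCNE5, KCNIP2, KCNIP3, KCNMB2 and KCNMB3). KCNJ12 and its near-identical paralog KCNJ18 share most of their sequence, and how the array's probes divide signal between them is uncertain.

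After 4 h, KCNJ2 was the single KCN gene that differed between the surfaces, and it was 2.11-fold lower on Ti-TMS-PEI. After 24 h, 7 KCN genes differed. KCNK1, KCNK6, KCNMA1 and KCNE4 were higher on Ti-TMS-PEI, and KCNJ2, KCNQ5 and KCNIP3 were lower. The difference between surfaces itself changed from 4 h to 24 h for KCNK6, KCNK1, KCNQ5, KCNIP3 and KCNG1. These changes were taken across times that were not on a common scale. A gene was called different where limma gave a fold change over 1.5, p below 0.05 and a Benjamini-Hochberg adjusted p below 0.05 over all 21448 transcript clusters. In bulk RNA a smaller share of cells expressing a gene and less RNA of it per cell cannot be told apart.

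The upstream sequences of KCNJ2 and KCNQ5, which were lower on Ti-TMS-PEI, and of KCNK6 and KCNK1, which were higher at 24 h, are shown so that the letters before each start site can be read next to the values. They are the 250 bases before the RefSeq start on GRCh38.p14, written 5′ to 3′ on the gene's strand, and capitals mark matches, on either strand, to any of 5 motifs searched.
KCNJ2 promoter, chr17:70169282-70169531, plus strand: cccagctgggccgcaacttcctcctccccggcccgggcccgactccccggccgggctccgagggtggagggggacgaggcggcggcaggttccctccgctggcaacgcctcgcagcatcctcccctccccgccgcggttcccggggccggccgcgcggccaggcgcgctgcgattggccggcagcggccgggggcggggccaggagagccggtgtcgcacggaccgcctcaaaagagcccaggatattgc
KCNQ5 promoter, chr6:72621814-72622063, plus strand: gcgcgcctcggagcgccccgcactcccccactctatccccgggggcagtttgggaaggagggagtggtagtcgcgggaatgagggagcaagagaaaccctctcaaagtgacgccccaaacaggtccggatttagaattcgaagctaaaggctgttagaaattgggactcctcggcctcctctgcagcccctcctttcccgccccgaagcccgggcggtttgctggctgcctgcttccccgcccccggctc
KCNK6 promoter, chr19:38319595-38319844, plus strand: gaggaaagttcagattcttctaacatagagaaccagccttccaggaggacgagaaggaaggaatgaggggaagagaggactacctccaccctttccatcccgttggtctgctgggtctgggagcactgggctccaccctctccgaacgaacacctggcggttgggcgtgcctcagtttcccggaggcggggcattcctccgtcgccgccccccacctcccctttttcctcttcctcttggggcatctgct
KCNK1 promoter, chr1:233613856-233614105, plus strand: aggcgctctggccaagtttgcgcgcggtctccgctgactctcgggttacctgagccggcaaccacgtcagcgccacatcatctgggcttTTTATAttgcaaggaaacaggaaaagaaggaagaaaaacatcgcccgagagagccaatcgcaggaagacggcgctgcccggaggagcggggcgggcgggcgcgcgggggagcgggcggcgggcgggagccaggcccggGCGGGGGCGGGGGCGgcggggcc
The motifs were the cyclic AMP response element TGACGTCA, AP-1 TGANTCA, EGR1 GCGNGGGCG, the nuclear receptor element NBRE AAAGGTCA and the TATA box TATAAA. In the same windows of all 35116 RefSeq promoters they occurred in 1.65%, 6.57%, 8.42%, 1.05% and 10.7%. The KCNK1 window held 2 overlapping EGR1 matches and a TATA box match in the reverse direction, while the windows of KCNJ2, KCNQ5 and KCNK6 held no match. Of the other called genes with an entry, KCNIP3, which was lower at 24 h, held 1 EGR1 match. KCNMA1, which was higher, has 2 windows, of which 1 held an EGR1 match and the other held 2 AP-1 matches. Over 107 promoters of the 69 KCN genes with an entry, EGR1 matched in 18 (16.8%), and these windows had a median GC content of 63.6% against 58.0% over all promoters. A match describes letters and not a bound site.

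Among the inward rectifiers, KCNJ2 codes for Kir2.1, the pore behind the classical strong inward rectifier current that stabilises the resting potential. At 4 h its log2 signal was 7.37, 7.71, 7.76 and 7.90 in Ti-Ref arrays A to D and 6.51, 6.86, 6.56 and 6.51 in Ti-TMS-PEI arrays A to D. Every array on the coating lay below every array on bare titanium. The means were 7.68 ± 0.22 (SD, n = 4) and 6.61 ± 0.17 (SD, n = 4), and the log2 fold change was −1.07 (SE 0.14, 95% interval −1.39 to −0.76, limma adjusted p = 0.0438). KCNJ2 was thereby 1 of 89 KCN genes called (1.12%), against 0.042% of all transcript clusters in either direction and 0.00932% called lower. The study had listed KCNJ2 as changed in these arrays, so the call is not independent evidence.

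At 24 h KCNJ2 was again lower on the coating. Its log2 signal was 10.41, 10.28 and 10.34 in Ti-Ref arrays A to C and 9.07, 9.14, 9.10 and 9.38 in Ti-TMS-PEI arrays A to D. The surfaces were separated by more than the range within either of them. The log2 fold change was −1.17 (SE 0.11, 95% interval −1.42 to −0.93, limma adjusted p = 0.000853), which is 2.25-fold lower. The effects at the 2 times differed by −0.10 (SE 0.18, limma adjusted p = 0.847), with each time measured on its own arrays. At 4 h the limma adjusted p of KCNJ2 lay between 0.0870 and 0.160 whenever any of the 8 arrays was left out. Its log2 fold changes then ran from −1.18 to −1.003, so the 4 h call needs all 8. Over all 21448 transcript clusters these omissions left 0 to 3 calls, where all 8 arrays gave 9. At 24 h leaving out any array kept the call, with adjusted p up to 0.00659.

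Of the other 3 expressed inward rectifiers none was called. KCNJ15, which codes for Kir4.2, had 5.49, 5.52, 5.30 and 5.01 in the Ti-Ref arrays and 5.74, 6.15, 5.93 and 6.32 in the Ti-TMS-PEI arrays at 4 h. The surfaces did not overlap, with all coated arrays above all bare ones, and the log2 fold change was 0.70 (SE 0.16). Its limma adjusted p was 0.200. At 24 h its log2 fold change was 0.17 (95% interval −0.07 to 0.41), and its Ti-Ref mean of 5.143 lay below the background limit of 5.174. KCNJ12, the pore of Kir2.2, had log2 fold changes of −0.37 (95% interval −0.72 to −0.02, limma adjusted p = 0.498) and −0.29 (95% interval −0.59 to 0.01, limma adjusted p = 0.220) at the 2 times. KCNJ8, the Kir6.1 pore of ATP-sensitive channels, had −0.12 and −0.09. KCNJ16, the next protein-coding gene to KCNJ2 on chromosome 17 in RefSeq, stayed below the background limit at both times, with means of 3.47 and 3.69.

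**Figure D2:**
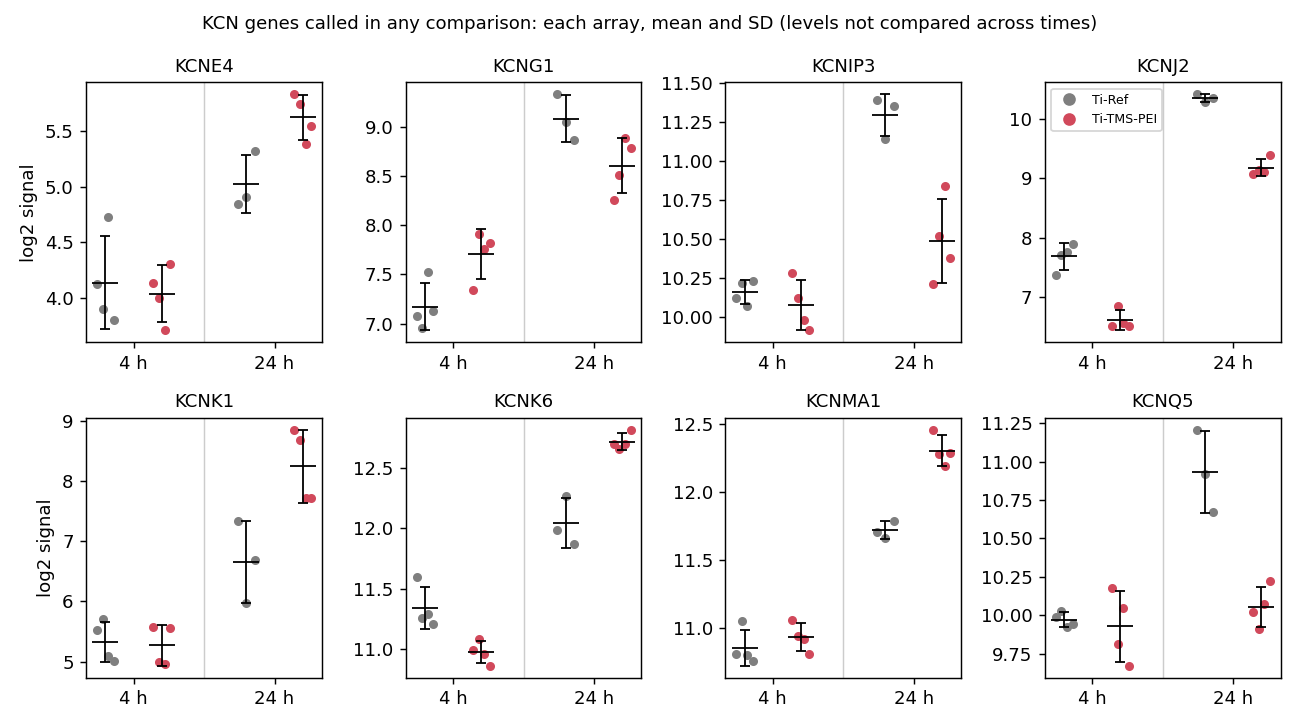
Log2 signal of each array (points) with the mean and SD (black) for the 8 KCN genes called in any comparison, on Ti-Ref (grey) and Ti-TMS-PEI (red) at 4 h and 24 h, with an own vertical axis for each gene. KCNJ2 is lower on the coating at both times, while KCNK6 lies lower at 4 h and higher at 24 h.

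Of the 2-pore-domain channels, KCNK6 and KCNK1 were higher on the coating at 24 h. KCNK6 codes for TWIK-2, a background channel also known from endolysosomal membranes. At 24 h its log2 signal was 11.99, 12.27 and 11.87 in the Ti-Ref arrays and 12.70, 12.66, 12.70 and 12.82 in the Ti-TMS-PEI arrays. All coated arrays lay above all bare ones, and the log2 fold change was 0.68 (SE 0.12, 95% interval 0.41 to 0.94, limma adjusted p = 0.00962).

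At 4 h the order of the surfaces was the opposite for KCNK6. The Ti-Ref arrays gave 11.60, 11.26, 11.29 and 11.21 and the Ti-TMS-PEI arrays 10.99, 11.08, 10.96 and 10.86. Each coated array was below each bare array, although the log2 fold change of −0.37 (SE 0.12) was not called (limma adjusted p = 0.374). The difference between the effects at 24 h and 4 h was 1.04 (SE 0.16, limma adjusted p = 0.00204). It passed the threshold whichever array was left out, with values from 0.96 to 1.16.

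KCNK1 codes for TWIK-1, the first K2P channel described in mammals. At 24 h its log2 signal was 7.33, 5.97 and 6.68 in the Ti-Ref arrays and 8.85, 8.68, 7.72 and 7.72 in the Ti-TMS-PEI arrays. The surfaces did not overlap, but both were widely spread, and coated arrays A and B lay well above C and D. The log2 fold change was 1.58 (SE 0.37, 95% interval 0.74 to 2.43, limma adjusted p = 0.0310), or 2.995-fold. Omitting Ti-Ref B took the value to 1.24 (adjusted p = 0.104), and omitting Ti-Ref C, Ti-TMS-PEI A or Ti-TMS-PEI B to 1.59, 1.38 and 1.44 (adjusted p = 0.0847, 0.0743 and 0.0853), so that the call was lost each time. At 4 h the arrays ran from 5.01 to 5.70 on Ti-Ref and from 4.96 to 5.57 on Ti-TMS-PEI, with overlapping ranges and a log2 fold change of −0.06 (95% interval −0.52 to 0.40). The effects at the 2 times differed by 1.64 (SE 0.45, limma adjusted p = 0.0462). That call held without Ti-Ref 4 h D, Ti-TMS-PEI 4 h A, Ti-Ref 24 h A, Ti-TMS-PEI 24 h C or D, and was lost without any of the other 10 arrays (adjusted p from 0.0544 to 0.127).

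KCNK2, the mechanically gated TREK-1, showed the same split of the coated arrays at 24 h. It had 7.65, 7.25 and 7.50 on Ti-Ref and 8.69, 8.44, 7.32 and 7.82 on Ti-TMS-PEI. Arrays A and B of the coating were high and C and D fell in or near the range of Ti-Ref, so the log2 fold change of 0.60 (95% interval −0.07 to 1.27) was not called (limma adjusted p = 0.254). KCNK5, the acid- and volume-sensitive TASK-2, differed by −0.57 on the log2 scale (95% interval −1.003 to −0.13, limma adjusted p = 0.105) at 24 h. For KCNK4, the TRAAK channel, and KCNK17, the TALK-2 channel, the values at 24 h were −0.15 and −0.33.

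Among the voltage-gated pores, KCNQ5 was lower on the coating at 24 h. KCNQ5 codes for Kv7.5, a slowly opening channel of the M-current family. Its log2 signal was 11.21, 10.92 and 10.67 in the Ti-Ref arrays and 10.02, 9.91, 10.07 and 10.22 in the Ti-TMS-PEI arrays. All coated arrays lay below the lowest bare array, and the log2 fold change was −0.88 (SE 0.14, 95% interval −1.20 to −0.56, limma adjusted p = 0.00731). The gene was called whichever of the 7 arrays was left out.

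At 4 h KCNQ5 had 9.99, 10.03, 9.92 and 9.94 on Ti-Ref and 10.18, 9.81, 10.05 and 9.67 on Ti-TMS-PEI. The coated arrays lay on both sides of the bare ones, and the log2 fold change was −0.04 (95% interval −0.33 to 0.24). The effects at the 2 times differed by −0.84 (SE 0.19, limma adjusted p = 0.0192). That difference missed the threshold without Ti-Ref 24 h A (−0.70, adjusted p = 0.0605).

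The other 6 expressed voltage-gated pores were KCNA5, KCNA10, KCNC4, KCNH2 (the hERG channel of cardiac repolarisation), KCNH3 and KCNQ1 (the slow cardiac repolarising pore). None was called by limma or had an unadjusted p below 0.05 at either time (0 of 6). Over all transcript clusters 9.46% had such a p at 4 h and 24.3% at 24 h. Log2 fold changes of the 6 genes at 24 h ran from −0.27 for KCNA5 to −0.06 for KCNH2. The coated mean of KCNA5 then lay below the background limit. KCNH1, the EAG1 channel known for its expression in tumours, differed by −0.49 on the log2 scale at 24 h, where limma gave an adjusted p of 0.0292. It was not called because the change was below 1.5-fold, and its mean of 4.50 lay below the background limit at that time. Over all 25 voltage-gated pores 1 was called at 24 h, where 6.15% of all transcript clusters were called, and the median log2 fold change was −0.17 against −0.00333 over all clusters.

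Of the 10 silent modifiers limma called none at either time. An unadjusted p below 0.05 was found for 1 (KCNG1) at 4 h, against 9.46% of all transcript clusters. At 24 h it was found for 2 (KCNG1 and KCNG2), against 24.3%. KCNG1, which codes for Kv6.1 and alters Kv2 channels, was the exception in the comparison of times. At 4 h it had 7.08, 6.96, 7.52 and 7.13 on Ti-Ref and 7.34, 7.91, 7.76 and 7.82 on Ti-TMS-PEI. At 24 h it had 9.33, 9.05 and 8.86 on Ti-Ref and 8.25, 8.51, 8.88 and 8.78 on Ti-TMS-PEI. The coated arrays were mostly higher at 4 h and mostly lower at 24 h, with 1 array overlapping the range of Ti-Ref at each time.

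The KCNG1 log2 fold changes were 0.53 (SE 0.16, limma adjusted p = 0.354) and −0.47 (SE 0.17, limma adjusted p = 0.130), neither of them called. Their difference was −1.01 (SE 0.25, limma adjusted p = 0.0274). It kept the call without Ti-Ref 4 h C or D, Ti-TMS-PEI 4 h A, Ti-Ref 24 h C, Ti-TMS-PEI 24 h C or D, and missed it without any of the other 9 arrays (adjusted p from 0.0508 to 0.0864). KCNF1, KCNG2 and KCNS3 had log2 fold changes from −0.36 for KCNG2 to 0.09 for KCNF1 at 24 h. KCNB2, a Kv2 pore of the kind such modifiers join, lay below the background limit at both times.

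Among the calcium-activated pores, KCNMA1 was higher on the coating at 24 h. It codes for the BK channel, which opens on both calcium and depolarisation. Its log2 signal was 11.71, 11.66 and 11.79 in the Ti-Ref arrays and 12.46, 12.28, 12.19 and 12.29 in the Ti-TMS-PEI arrays. All coated arrays lay above all bare ones, with little spread on either surface. The log2 fold change was 0.58 (SE 0.10, 95% interval 0.36 to 0.81, limma adjusted p = 0.00973).

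That change of KCNMA1 sat on the 1.5-fold limit itself. It fell below the limit, with adjusted p still under 0.05, without Ti-Ref A (0.58), Ti-Ref B (0.56) or Ti-TMS-PEI A (0.53), with array weights (0.57) and after centring on array medians (0.52). The call was also lost with the replicate letter as a block. Across the alternative fits its limma adjusted p reached 0.0665. At 4 h the arrays overlapped, from 10.76 to 11.05 on Ti-Ref and from 10.81 to 11.06 on Ti-TMS-PEI, and the log2 fold change was 0.08 (95% interval −0.17 to 0.32). The effects on KCNMA1 at the 2 times differed by 0.51 (SE 0.14, limma adjusted p = 0.0510), which was not called. KCNN4, the intermediate-conductance channel known from proliferating cells, had log2 fold changes of 0.13 (95% interval −0.14 to 0.40) at 4 h and 0.18 (95% interval −0.25 to 0.62) at 24 h. KCNN1, a small-conductance channel, had −0.10 and −0.08.

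Of the auxiliary subunits, KCNIP3 was lower and KCNE4 higher on the coating at 24 h. KCNIP3 codes for KChIP3, also called calsenilin or DREAM, a calcium-binding protein that joins Kv4 pores and also acts as a transcriptional repressor. Its log2 signal was 11.39, 11.14 and 11.35 in the Ti-Ref arrays and 10.21, 10.52, 10.84 and 10.38 in the Ti-TMS-PEI arrays. Every coated array was below every bare array, and the log2 fold change was −0.81 (SE 0.15, 95% interval −1.15 to −0.46, limma adjusted p = 0.0139).

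The KCNIP3 call was lost without Ti-Ref A (−0.76, adjusted p = 0.0603) or Ti-Ref C (−0.78, 0.0511). At 4 h its arrays overlapped, from 10.07 to 10.23 on Ti-Ref and from 9.92 to 10.28 on Ti-TMS-PEI, with a log2 fold change of −0.08 (95% interval −0.33 to 0.16). The effects at the 2 times differed by −0.72 (SE 0.19, limma adjusted p = 0.0367), a call that held without Ti-Ref 4 h D, Ti-TMS-PEI 4 h C or D, Ti-Ref 24 h B or Ti-TMS-PEI 24 h C and was lost without any of the other 10 arrays (adjusted p from 0.0527 to 0.0974). The Kv4 pores that KCNIP3 is known to join, KCND1, KCND2 and KCND3, lay below the background limit at both times, with means from 2.83 to 3.70.

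KCNE4, a single-span subunit known to inhibit KCNQ1 channels, was above the limit only at 24 h. It then had 4.84, 4.91 and 5.32 on Ti-Ref and 5.83, 5.74, 5.38 and 5.54 on Ti-TMS-PEI. The surfaces did not overlap, but Ti-Ref C and Ti-TMS-PEI C were close to each other. The Ti-Ref mean of 5.02 ± 0.26 (SD, n = 3) lay below the background limit of 5.174, and the gene passed that limit only through the coated arrays, with a mean of 5.62 ± 0.20 (SD, n = 4). The log2 fold change, against a level not above background, was 0.60 (SE 0.15, 95% interval 0.25 to 0.95, limma adjusted p = 0.0436), and the call was lost without any of 5 of the 7 arrays (0.51 to 0.63, adjusted p from 0.0666 to 0.148). These were Ti-Ref A and B and Ti-TMS-PEI A, B and D. The effects on KCNE4 at the 2 times differed by 0.70 (SE 0.28, limma adjusted p = 0.182), which was not called.

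KCNMB2, a BK-channel β subunit, had 6.01, 5.31 and 5.86 on Ti-Ref and 6.90, 6.62, 6.23 and 6.12 on Ti-TMS-PEI at 24 h. All coated arrays were above all bare ones, again with A and B highest. The log2 fold change of 0.74 (SE 0.22) was not called (limma adjusted p = 0.0750). KCNMB3, another BK β subunit, had −0.33 at 4 h, where the surfaces did not overlap (limma adjusted p = 0.385), and 0.28 at 24 h. KCNAB2, the Kvβ2 subunit, had 0.29 (95% interval −0.02 to 0.59) at 24 h.

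**Figure D3:**
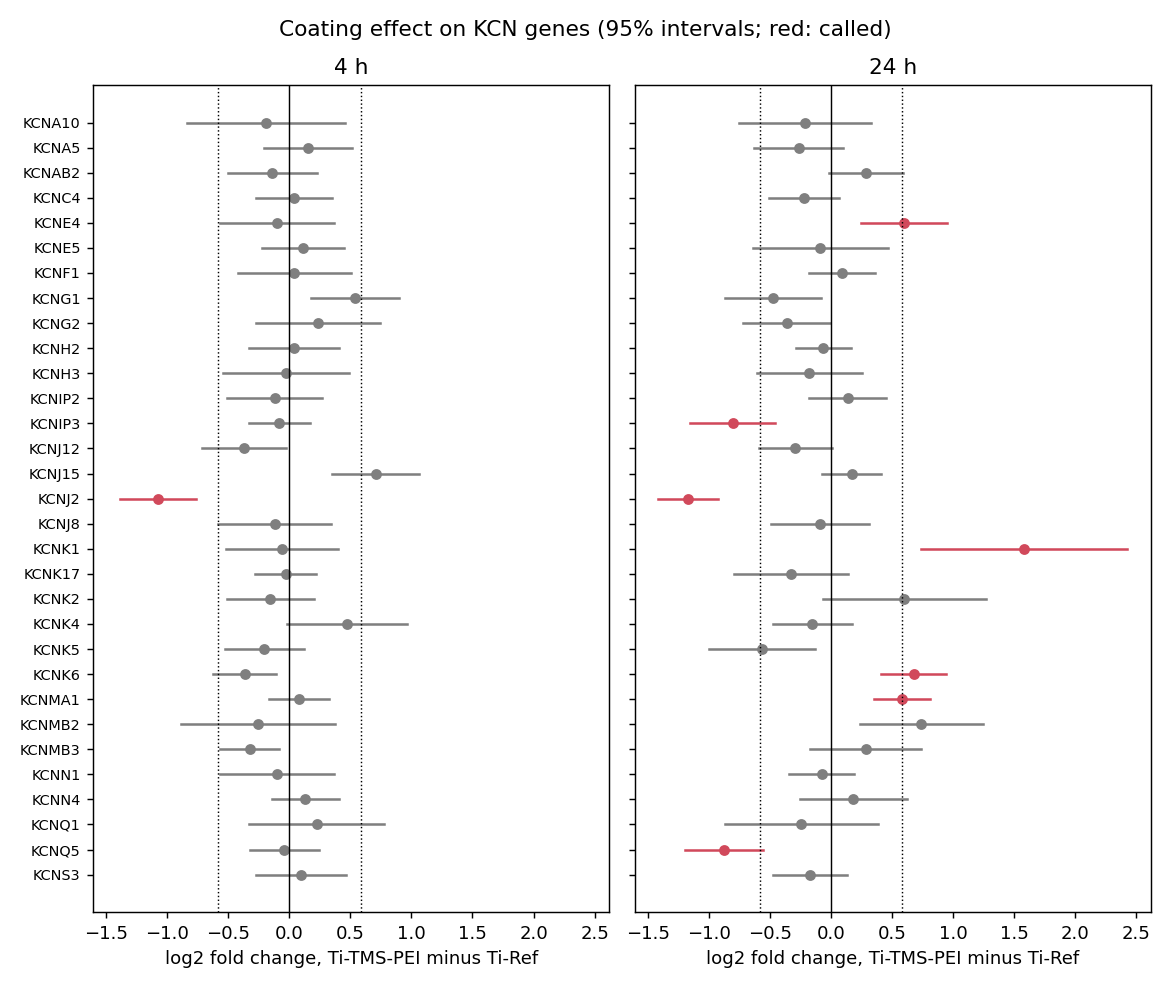
Log2 fold change of Ti-TMS-PEI over Ti-Ref with its 95% interval for the 30 expressed KCN genes and KCNE4 at 4 h and 24 h, with called genes in red and dotted lines at 1.5-fold in either direction. At 4 h KCNJ2 alone is red, and at 24 h 4 genes are red to the right of 0 and 3 to the left.

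Over all 89 KCN genes, 7 (7.87%) were called at 24 h against 6.15% of all transcript clusters. Of these, 4 were higher against 3.46% of all clusters and 3 lower against 2.69%. The shares of the KCN genes were thus near those of the whole array. Among the 30 expressed genes 6 were called (20%), against 9.46% of the 13115 transcript clusters above the limit at both times, which describes only genes that passed the limit. The median log2 fold change of the 89 genes was −0.005 at 4 h and −0.0425 at 24 h, and over all transcript clusters it was −0.0075 and −0.00333. The arrays of the surfaces did not overlap for 6 KCN genes at 4 h (6.74% against 5.77% of all clusters) and for 12 at 24 h (13.5% against 23.5%). The comparison of the effects at 24 h and 4 h called 5 KCN genes (5.62%) against 4.78% of all clusters.

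For the 21 expressed genes without a call and without a change over 1.5-fold at an unadjusted p below 0.05, log2 fold changes ran from −0.37 to 0.47 at 4 h and from −0.57 to 0.60 at 24 h. Their lowest limma adjusted p was 0.385 at 4 h and 0.105 at 24 h. The 4 h value of 0.47 was that of KCNK4, whose Ti-Ref mean of 4.295 lay below the background limit. Among the 59 genes not above the limit at both times, log2 fold changes ran from −0.46 to 0.48 at 4 h and from −0.49 to 0.60 at 24 h, and KCNE4 was the only call. The median SD between arrays of the expressed genes ran from 0.19 to 0.25 over the 4 groups.

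Genes that act with potassium channels were followed in 7 lists. At 4 h limma called none of their 104 measured genes, against 0.042% of all transcript clusters. Of the 104 genes 10 had an unadjusted p below 0.05, against 9.46% of all clusters. Both counts were near the shares of the whole array. At 24 h, 3.46% of all transcript clusters were called higher and 2.69% lower, and the counts of each list stand beside these shares. Of 13 calcium entry and mechanically gated channels, 3 were higher on the coating at 24 h and none lower. ORAI3, a pore of store-operated calcium entry, was 2.15-fold higher (log2 fold change 1.10, SE 0.24, limma adjusted p = 0.0216). TRPV4, a channel opened by swelling and warmth, was 1.78-fold higher (0.84, SE 0.15, limma adjusted p = 0.0111), and PIEZO2, a mechanically gated channel, 1.57-fold higher (0.65, SE 0.16, limma adjusted p = 0.0393). The median over the 13 genes was 0.30, against −0.00333 over all transcript clusters.

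Of 15 genes listed for cation-chloride cotransport 14 were measured, and 1 of these was called at 24 h. The list held genes of the SLC12 family and the kinases WNK1, WNK2, WNK3, WNK4, STK39 and OXSR1. The called gene was SLC12A8, a member of the SLC12 family by symbol, 3.61-fold higher on the coating (log2 fold change 1.85, SE 0.30, limma adjusted p = 0.00741). Of 17 genes listed for the sodium-potassium pump 10 were measured, with no catalytic subunit of that pump among them. They were β and FXYD subunits and the hydrogen-potassium pump genes ATP4A, ATP4B and ATP12A. Only ATP1B1, a β subunit, was called at 24 h, 1.85-fold lower (−0.89, SE 0.22, limma adjusted p = 0.0403). Of 26 voltage-gated sodium and calcium channel genes SCN3A, the Nav1.3 pore, was 1.81-fold lower (−0.85, SE 0.13, limma adjusted p = 0.00620).

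Of 15 chloride and volume-regulated channel genes, 3 were called at 24 h. CLCN6, a late endosomal chloride transporter, was higher (log2 fold change 0.69, limma adjusted p = 0.00619), and LRRC8C, a subunit of the volume-regulated anion channel, was lower (−0.69, limma adjusted p = 0.0458). ANO1, a calcium-activated chloride channel, was lower as well (−0.60, limma adjusted p = 0.0169). At 24 h limma called none of 13 genes for Kir2.1 scaffolding and traffic, of which 4 had an unadjusted p below 0.05. It also called none of 13 channel partners and other pores without a KCN symbol, of which 1 had an unadjusted p below 0.05. Over all transcript clusters 24.3% had such a p at 24 h. The pores in that second list were HCN2, HCN3, HCN4 and TMEM175. Above the background limit at both times were 10 genes of the first list but only 1 of the second.

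Other groups of genes moved with the coating at 24 h. Of 12 proliferation genes 11 were called lower at 24 h, against 2.69% of all transcript clusters. Their array means ran from 13.52 to 13.67 on Ti-Ref and from 12.39 to 12.96 on Ti-TMS-PEI. At 4 h none of them was called, against 0.042% of all clusters, and 0 had an unadjusted p below 0.05, against 9.46%. Among the markers of other cell types, CDH5 of the endothelial list was called higher (log2 fold change 0.77, limma adjusted p = 0.0249), with 1 of 5 endothelial markers above the limit at both times and the mean of the 5 from 5.03 to 5.13 on Ti-Ref and from 5.15 to 5.47 on Ti-TMS-PEI. No marker of the neuron, muscle, epithelium or blood lists was called. Of these 22 markers 3 had an unadjusted p below 0.05, against 24.3% of all transcript clusters. THY1, of the mesenchymal list, was called lower (−1.23, limma adjusted p = 0.0297). The part of these shifts in the KCN values at 24 h was not tested.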

How the data were processed

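Total RNA of MG-63 cells was hybridised to human transcript arrays. Per the labels and methods, the authors summarised the scans by signal space transformation and RMA in the Transcriptome Analysis Console and deposited log2 values with 2 decimals. Whether both times were normalised together is not given in the sources used here, and the array medians differed between the times. The genome build of the cluster annotation is not given in the sources used here. All 15 arrays and every column were used. Deposited log2 values were tested with limma 3.58.1 (R 4.3.3), surface against surface within each time and as the interaction of surface and time over 15 arrays, with empirical Bayes moderation and Benjamini-Hochberg adjustment over 21448 transcript clusters. Calls required over 1.5-fold, p and adjusted p below 0.05, as in the study. Where a gene had several clusters the highest mean would have been used, but each KCN gene had 1. Genes were named with values if called, if above background at both times, or if past 1.5-fold at unadjusted p below 0.05; the array values shown were those of genes on which statements turn. KCN genes, lists and promoters shown were chosen with earlier results of these data known. RefSeq symbols matched all 89 genes by gene ID, and promoters came from RefSeq (GRCh38.p14). Code was checked on simulated data. The number of arrays limits the precision. Alternatives were the replicate letter as a block, a shared spread, a trended robust prior, array weights, no dim clusters (25%), a second quantile normalisation, median centring, 1 cluster per gene, other thresholds and leaving out each array. Arrays sharing a letter had deviations from their group means that correlated between −0.03 and 0.05 at 4 h and between −0.07 and −0.06 at 24 h, so letters were not treated as pairs.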

Additional observations from a re-analysis of the deposited data

Results flagged for a closer look

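In 5 of 93 groups of 4 arrays examined for the 31 named genes, a single array stood apart. Its gap to the nearest array took a share of the group's range above Dixon's limit. Chance alone flags about 1 in 20 groups. The group of 3 Ti-Ref arrays at 24 h was not examined in this way. KCNJ2 in Ti-TMS-PEI 4 h array B was 6.86 against 6.51 to 6.56 in the others (share 0.857). KCNS3 in Ti-Ref 4 h array A was 4.66 against 5.15 to 5.17 (0.961). Ti-Ref 4 h array D was apart for KCNK2, at 6.67 against 7.18 to 7.25 (0.879), and for KCNE5, at 5.10 against 4.46 to 4.55 (0.859). KCNC4 in Ti-TMS-PEI 24 h array A was 5.34 against 5.68 to 5.73 (0.872).

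The coating effect differed between 24 h and 4 h, by limma's interaction term, for 5 genes. This term subtracts log2 fold changes of times with different signal distributions, so it also depends on the scale at each time. The difference on the log2 scale was 1.04 for KCNK6 (adjusted p = 0.00204), 1.64 for KCNK1 (adjusted p = 0.0462), −0.84 for KCNQ5 (adjusted p = 0.0192), −0.72 for KCNIP3 (adjusted p = 0.0367) and −1.01 for KCNG1 (adjusted p = 0.0274).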

How the results depend on the processing

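KCNJ2 at 24 h kept its direction and call in all 15 alternative fits at 1.5-fold (−1.24 to −1.14), and so did KCNQ5. No called value changed sign. Uncalled values near 0 did, such as KCNE4 at 4 h (−0.21 to 0.10), KCNK1 at 4 h (−0.17 to 0.06), KCNQ5 at 4 h (−0.13 to 0.04) and the KCNJ2 difference between times (−0.19 to 0.01). With the replicate letter as a block, KCN calls went from 1 to 0 at 4 h and from 7 to 3 at 24 h. For the difference between times they went from 5 to 1. Those left were KCNJ2, KCNK1 and KCNQ5 at 24 h and KCNK6 for the difference. Over all transcript clusters the block took calls from 9 to 0, from 1319 to 853 and from 1026 to 578. With the block the KCNJ2 change at 4 h was −1.07 (limma adjusted p = 0.227). A second quantile normalisation left 0 KCN calls at 4 h (KCNJ2 −1.05, limma adjusted p = 0.0764). A spread shared over all 15 arrays gave 2, KCNJ2 and KCNJ15. Over all clusters these fits called 5 and 62 at 4 h. A 2-fold threshold left 2 calls at 24 h and 3 for the difference between times. Leaving out 1 array gave 0 KCN calls at 4 h in all 8 cases (KCNJ2 from −1.18 to −1.003). It gave 4 to 7 at 24 h, 4 without Ti-Ref A or Ti-TMS-PEI A, and 2 to 5 for the difference between times. Over all clusters it left 0 to 3 calls at 4 h, 851 to 1370 at 24 h and 681 to 1111 for the difference. The expressed KCN genes numbered 30, 13 at the 99th percentile limit and 9 at the median of all clusters. KCNK6 kept the difference between times in all 22 alternatives, and its 24 h call was lost with the block (adjusted p = 0.0645) and at a 2-fold threshold. The cause of each lost call was not tested. Values near the background limit can understate changes of dim genes.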
